A study of Mus musculus with 5 samples.

Results

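Zscan4a, Zscan4b, Zscan4c, Zscan4f, Pramel37, Pramel39, Usp17la, Tcstv3, BB287469 and Tmem92 are known from the mouse embryo at the two-cell stage, and they were followed here in gastric organoids. These 10 genes are described out of 17583 tested on the array. They were selected on their log2 signal in these same arrays, which was higher in tumour-derived organoids than in the control organoid, so every difference from the control given for them describes the choice and is not a test of it. The same holds for differences between the tumour arrays, since those values belong to the same contrast.

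Gastric organoids are clusters of stomach epithelial cells grown in gel. Each of 5 samples was read on 1 one-colour Agilent array. The control was an organoid line from Trp53flox/flox mice carrying the hairpin vector pLKO.1 with shLuc, a hairpin against luciferase, and was taken before it was placed under the skin of a host. The 4 other samples were organoids regrown from subcutaneous tumours, and all of them carried Trp53 loss. Of these, 1 had shCdh1 #1 (hairpin 1) and 1 had shCdh1 #2 (hairpin 2), which are separate hairpins against E-cadherin. Another had the Apc lesion labelled Apc580D, and the last had the Pik3ca mutation labelled Pik3caH1047R. All samples were labelled female and from stomach, and the growth medium was described in the same terms for each. No ages, Cre driver, clone or animal numbers were found in the labels. The comparison with the control therefore combines Trp53 loss, the additional lesion, growth as a tumour and any difference of organoid line, and these cannot be told apart. The control and both shCdh1 samples shared 1 slide, and the Apc and Pik3ca samples shared the other, so slide and those genotypes cannot be told apart either.

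The early mouse embryo starts to transcribe its own genome at the two-cell stage, and the transcription factor Dux switches on a burst of genes there that are silent in most later tissues. Zscan4, a family of zinc finger proteins with a SCAN domain that act at telomeres, is a standard marker of that burst. In cultured embryonic stem cells a small, changing fraction of cells re-enters this state for a short time, and the same genes then come on together. Many of them lie in recently duplicated families, among them the leucine-rich Pramel genes, the Usp17l deubiquitinases and the Tcstv genes. The normal adult stomach is not known as a site of their expression.

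Levels are log2 processed signal relative to the 75th percentile of each array, so that 0 is the 75th percentile. A spot is called well above background by the scanner software when it clears the local background. Between 61.8% and 65.3% of 59305 spots per array did so, and none was saturated. Trp53 stood at 0.85 in the control and at −5.86 to −4.86 in the tumour-derived organoids. Cdh1 stood at 0.07 and 0.26 in the shCdh1 organoids, against 4.39 to 4.58 in the other 3 samples. The library labelled Pik3ca went against its label of female. Its Xist level was −8.14 and not well above background, against −0.90 to −0.69 on the other arrays, and the Y-linked genes Uty, Kdm5d, Ddx3y and Eif2s3y cleared background on that array alone. The counts and medians of the main groups are therefore also given without it. All 11 gastric epithelium markers examined were well above background on all 5 arrays. Their median difference from the control was −0.43, and 5 of the 11 were at least 2-fold lower by the mean of the tumours (background 6.98%). These were Cdh1 by −2.04, Gkn2 by −1.52, Tff1 by −1.51, Tff2 by −1.32 and Cldn18 by −1.20. Cdh1, the hairpin target, differed by −4.32 in hairpin 1 and −4.13 in hairpin 2, but by 0.09 in Apc and 0.19 in Pik3ca. The other markers lay within 2-fold of the control by the mean, and Epcam alone was higher, by 0.94. None of the 11 passed the limma fit described below or had an unadjusted p under 0.05, and their part in the results was not tested. Apart from the pair of hairpins no genotype had a replicate, and nothing in the labels says whether those came from separate cultures, so the SD over the 4 tumour arrays given below is a spread across genotypes.

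Because the levels of these genes went together over the arrays, the sequence in front of their start sites is shown first for 6 of the 10. RefSeq gave promoters for 7 of them on assembly GRCm38.p6 (mouse), and Zscan4a, Tcstv3 and Tmem92 had no entry. Each line holds the 150 bases that end just before the annotated start, 5′ to 3′ on the gene's own strand. Capitals mark TATAAA, the core of a TATA box, where it occurs.
Zscan4b, chr7:10905051-10905200, minus strand: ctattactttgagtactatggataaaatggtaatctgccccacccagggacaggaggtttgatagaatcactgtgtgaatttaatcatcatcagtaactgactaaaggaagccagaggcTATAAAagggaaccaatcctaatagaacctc
Zscan4c, chr7:11005595-11005744, plus strand: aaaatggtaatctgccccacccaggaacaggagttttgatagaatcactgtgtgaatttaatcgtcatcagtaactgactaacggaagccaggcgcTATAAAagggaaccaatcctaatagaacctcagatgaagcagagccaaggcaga
Zscan4f, chr7:11397765-11397914, plus strand: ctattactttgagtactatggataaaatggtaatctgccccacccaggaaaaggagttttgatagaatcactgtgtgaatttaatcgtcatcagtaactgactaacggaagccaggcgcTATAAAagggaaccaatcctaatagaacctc
Pramel37, chr5:94070546-94070695, minus strand: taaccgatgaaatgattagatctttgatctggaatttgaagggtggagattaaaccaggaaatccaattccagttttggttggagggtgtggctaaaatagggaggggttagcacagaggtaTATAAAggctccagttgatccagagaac
Usp17la, chr7:104856866-104857015, plus strand: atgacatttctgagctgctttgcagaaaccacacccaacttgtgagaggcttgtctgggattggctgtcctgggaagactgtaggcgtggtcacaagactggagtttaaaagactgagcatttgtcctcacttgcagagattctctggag
BB287469, chr12:87816427-87816576, plus strand: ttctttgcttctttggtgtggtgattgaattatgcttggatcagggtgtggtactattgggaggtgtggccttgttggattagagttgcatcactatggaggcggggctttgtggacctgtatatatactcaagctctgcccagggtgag

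The Zscan4 promoters are near copies of each other. Over the RefSeq window of 250 bases before to 50 after the start, Zscan4c and Zscan4f were 99.3% identical over 277 aligned bases, Zscan4b and Zscan4f 95.7% over 300, and Zscan4b and Zscan4c 95.3% over 277. Pramel37 and Pramel39 were 98.3% identical over 300 bases, and their printed stretches are the same letter for letter, so Pramel39 is not repeated. TATAAA was searched on both strands and stood in 5 of the 7 windows, all on the gene's own strand, against 13.6% of 32851 mouse promoters of the same length on either strand. It began 28 bases before the start in Pramel37 and Pramel39, 31 in Zscan4b and Zscan4f, and 54 in Zscan4c, whose annotated start differs from that of its copies. Within the stretch from 45 to 16 bases before the start it was found in 4 of 7, against 2.14% of all promoters. These 5 promoters come from only 2 gene families, so they are not independent examples. The core of the Dux site, GATTNAATC, was in 0 of the 7 windows and in 0.268% of all promoters. A motif described for Zscan4, TGCACAC, was in 0 of 7 and in 4.4% of all. Neither of these says anything about Dux or Zscan4 themselves, only that the letters are not in these windows. The windows held 1 to 4 CpG dinucleotides, against a median of 7 over all promoters, and 38% of all promoters held 4 or fewer.

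The Zscan4 genes form a cluster on chromosome 7, in the RefSeq order Zscan4a, Zscan4b, Zscan4c, Zscan4d, Zscan4f. Zscan4a is annotated as a transcribed pseudogene and the other 3 measured genes as protein coding. Zscan4d had no matched probe and was not analysed here. Because these genes are near copies, a probe for one may also bind the transcripts of another. Probe sequences were not used here, so the 4 readings cannot be taken as 4 separate genes.

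Zscan4f stood at −5.39 in the control, −0.19 in hairpin 1, −3.88 in hairpin 2, 1.16 in Apc and 0.96 in Pik3ca. It was well above background on every array. Hairpin 1, Apc and Pik3ca lay together near or above the array's 75th percentile, and hairpin 2 lay between them and the control. Relative to the control, Zscan4f was 36.7-fold higher in hairpin 1, 2.83-fold in hairpin 2, 93.5-fold in Apc and 81.5-fold in Pik3ca. Its mean difference was 4.90 ± 2.34 on the log2 scale (SD, n = 4), or 29.8-fold.

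Zscan4b gave nearly the same reading. Its level was −5.67 in the control, −0.13 in hairpin 1, −4.10 in hairpin 2, 1.03 in Apc and 0.77 in Pik3ca. The order of the arrays was the same, and the folds over the control were 46.5, 2.96, 104 and 87.1 in the order hairpin 1, hairpin 2, Apc, Pik3ca. The mean difference was 5.06 ± 2.38 (SD, n = 4), or 33.5-fold.

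Zscan4a and Zscan4c were not well above background in the control, so their folds are lower bounds, set against the control array's lowest level among probes well above background (−6.07). Zscan4a read −8.19 in the control, −1.65 in hairpin 1, −4.90 in hairpin 2, −0.27 in Apc and −0.68 in Pik3ca. The bounds were at least 21.3-fold, 2.25-fold, 55.7-fold and 41.9-fold in hairpin 1, hairpin 2, Apc and Pik3ca, and at least 18.3-fold for the mean of the 4. All 4 tumour readings were well above background. These bounds hold for the main background correction only. After normexp the mean fold was 5.7 for Zscan4a, 5 for Zscan4c, 9.63 for Zscan4b and 9.77 for Zscan4f.
Zscan4c read −7.26, −1.85, −5.06, −0.18 and −0.71 in the order control, hairpin 1, hairpin 2, Apc, Pik3ca, which is at least 17.3-fold for the mean. A second, dimmer Zscan4c probe read −6.41, −3.64, −7.34, −2.76 and −2.80 in the same order. It was well above background in hairpin 1, Apc and Pik3ca alone, at least 5.36-fold, 9.87-fold and 9.61-fold above the control. In hairpin 2 this probe was not well above background and read below the control. The rise of Zscan4c over the control in that sample, at least 2.01-fold, therefore rests on the brighter probe alone. Over the 5 arrays the probes had a Pearson r of 0.914, given as a description.

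For Zscan4b and Zscan4f, the pair measured on both sides, the difference from the control was 5.54 and 5.20 in hairpin 1, 1.57 and 1.50 in hairpin 2, 6.71 and 6.55 in Apc, and 6.45 and 6.35 in Pik3ca. Pearson r between the levels of Zscan4 genes over the 5 arrays was 0.984 to 0.999, on points that share arrays and, possibly, transcripts.

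Pramel37 and Pramel39 belong to the PRAME-like family of leucine-rich repeat proteins, expressed in embryo and germ line, and lie close to each other on chromosome 5. Pramel39 read −7.22 in the control, where it was not well above background, −0.10 in hairpin 1, −2.49 in hairpin 2, 1.59 in Apc and 1.02 in Pik3ca. Its bounds were at least 62.5-fold, 12-fold, 202-fold and 136-fold in hairpin 1, hairpin 2, Apc and Pik3ca, and at least 67.3-fold for the mean. Hairpin 2 was again lowest of the tumours. A second Pramel39 probe was dimmer and read −8.31, −3.09, −5.45, −2.03 and −2.46 in the order control, hairpin 1, hairpin 2, Apc, Pik3ca, at least 7.01-fold for the mean, with r = 0.996 to the first over the 5 arrays.
Pramel37 read −7.55 in the control, also not well above background, −0.77 in hairpin 1, −3.56 in hairpin 2, 0.64 in Apc and 0.07 in Pik3ca. Its mean was at least 35.8-fold above the control, and its bound in hairpin 2 was at least 5.7-fold. After normexp the mean folds were 8.48 for Pramel37 and 12.7 for Pramel39, below these bounds.

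Usp17la encodes a deubiquitinase, an enzyme that removes ubiquitin from proteins. It read −5.14 in the control, −1.49 in hairpin 1, −3.99 in hairpin 2, 0.02 in Apc and −0.71 in Pik3ca, well above background throughout. The folds over the control were 12.5 in hairpin 1, 2.22 in hairpin 2, 35.8 in Apc and 21.5 in Pik3ca, with a mean difference of 3.60 ± 1.74 (SD, n = 4), or 12.1-fold, and 4.71-fold after normexp.

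Tcstv3, a gene of the two-cell stage linked to telomere upkeep in embryonic stem cells, read −4.87 in the control, 1.72 in hairpin 1, −1.94 in hairpin 2, 3.22 in Apc and 2.67 in Pik3ca. It was well above background on all 5 arrays, so its folds are measured: 95.9 in hairpin 1, 7.64 in hairpin 2, 273 in Apc and 186 in Pik3ca. The mean difference was 6.29 ± 2.32 (SD, n = 4), or 78.1-fold, and 27.4-fold after normexp. That was the highest mean among the 6 genes measured on both sides.

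BB287469 is related to the translation initiation factor eIF1A and belongs to a family transcribed in two-cell embryos. It read −5.81 in the control, −0.95 in hairpin 1, −4.31 in hairpin 2, 0.29 in Apc and 0.10 in Pik3ca. The mean difference was 4.60 ± 2.13 (SD, n = 4), or 24.2-fold, and 6.56-fold after normexp, and hairpin 2 was 2.84-fold above the control.

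Tmem92, which encodes a predicted membrane protein, was the exception. It read −4.03 in the control, −3.40 in hairpin 1, −4.25 in hairpin 2, −2.09 in Apc and −2.31 in Pik3ca. Apc and Pik3ca were 3.84-fold and 3.29-fold above the control, hairpin 1 was 1.55-fold above it, and hairpin 2 lay slightly below it, at 0.859 of its level. The mean difference was 1.02 ± 1.00 (SD, n = 4), or 2.03-fold, just inside a 2-fold limit, and it was 0.78 without the Pik3ca library and 0.61, or 1.52-fold, after normexp.

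**Figure D1:**
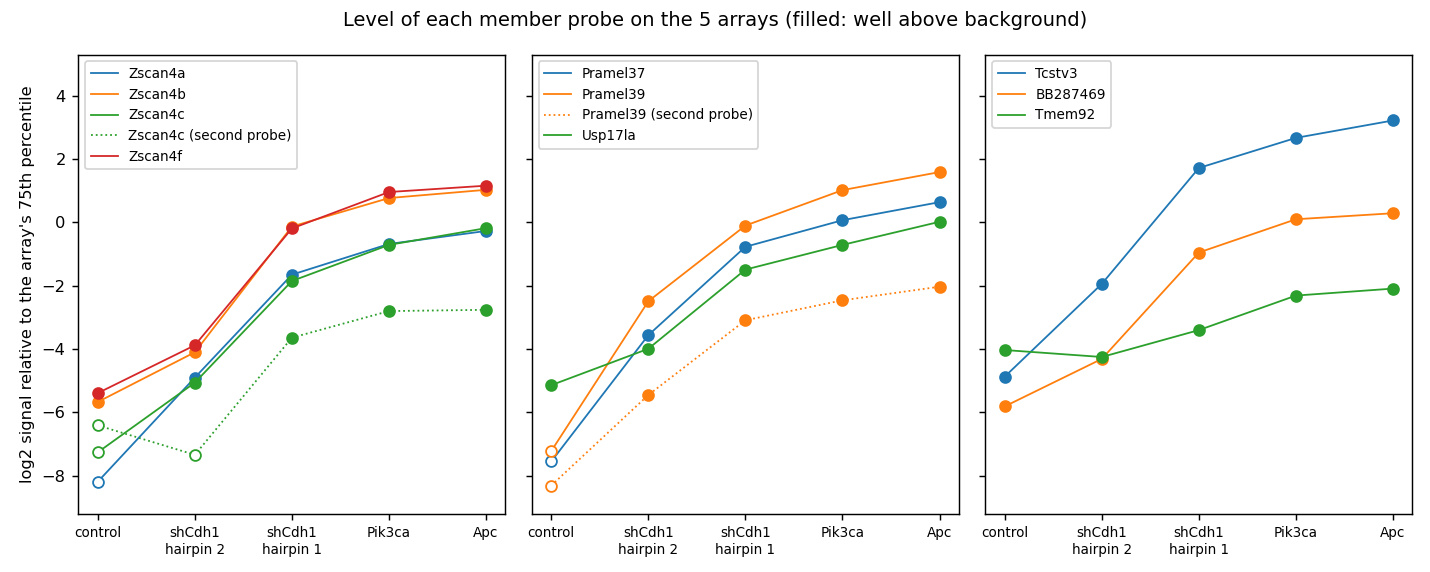
Log2 level relative to each array's 75th percentile (vertical axis) of the 12 probes of the 10 genes on the 5 arrays (horizontal axis), with lines joining 1 probe's readings and open points for readings not well above background. Every line except those of Tmem92 and the second Zscan4c probe climbs through control, hairpin 2, hairpin 1, Pik3ca and Apc in that order.

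Counted at 2-fold, 9 of the 10 genes were higher than the control in hairpin 1 (background 8.69% of all tested genes), 9 in hairpin 2 (background 11%), 10 in Apc (background 11.3%) and 10 in Pik3ca (background 12.1%). By the mean of the 4 tumours all 10 were at least 2-fold higher (background 9.88% higher and 6.98% lower), and without the Pik3ca library 9 of 10 were, Tmem92 dropping out. Since the genes were chosen for these differences, nothing is read from the counts. The hairpin 2 count was the least firm. After another background correction (normexp) only 3 of 10 genes, Pramel37, Pramel39 and Tcstv3, were 2-fold above the control there, and the median difference in hairpin 2 was 0.54 in place of 1.88. The median difference of the 10 genes was 5.47 in hairpin 1, 6.89 in Apc and 6.50 in Pik3ca, against medians of 0.08, −0.01 and 0.06 over all genes. Their median mean difference of 5.19 became 2.90 after normexp, 4.75 without the Pik3ca library and 4.75 with dim readings raised to the array's lowest level well above background. On the slide that held the control, hairpins 1 and 2 together gave a median difference of 3.68, with 9 of the 10 at least 2-fold higher and Tmem92 at 0.21.

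For background, limma (lmFit and eBayes, Benjamini-Hochberg adjustment, threshold 0.05) was fitted over all genes with the 4 tumours against the control. It called 4 genes higher, Cdkn2a, Onecut1, Onecut2 and Otop3 (0.0227% of those tested), and 17 lower (0.0967%). No gene was called with slide as a block, or without hairpin 1, hairpin 2 or Pik3ca. None of the 10 genes was among them. Of the 10, 5 had an unadjusted p under 0.05 (Zscan4a, Zscan4c, Pramel37, Pramel39 and Tcstv3), as did 2345 of all genes. Of those 5, all but Tcstv3 were not well above background in the control, so their p-values rest on background readings there. The 10 genes were chosen for this difference, so these p-values are no test of it. The fit has 3 residual degrees of freedom and a single control. It carries the spread between tumours, which for the 10 genes was 1.00 to 2.38 log2 units (SD, n = 4).

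The 10 genes kept 1 order over the samples with little exception. In 9 of 10, all but Tmem92, levels climbed from the control through hairpin 2, hairpin 1 and Pik3ca to Apc (background 1.22% of all tested genes, 214 genes). The widest step between neighbours among the tumours was between the hairpins for all but Tmem92. Hairpin 1 was at least 2-fold above hairpin 2 in 9 of 10 (background 5.31%), by a median of 3.23 log2 units. For Zscan4b the step was 3.97, or 15.7-fold, for Tcstv3 it was 12.6-fold, and for Tmem92 it was 0.85. These are different hairpins against 1 gene, and their Cdh1 levels were 0.07 and 0.26. Pik3ca lay above hairpin 1 by 0.78 to 1.15 log2 units, and this pair was read on different slides. Apc lay above Pik3ca by 0.19 to 0.73, with 0 of 10 at 2-fold. The software's own error on single spots was 10% to 16.5% of the signal on the tumour arrays. With 1 array per sample no spread between replicates exists for Apc and Pik3ca, so the order of this neighbouring pair has no replicate check.

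**Figure D2:**
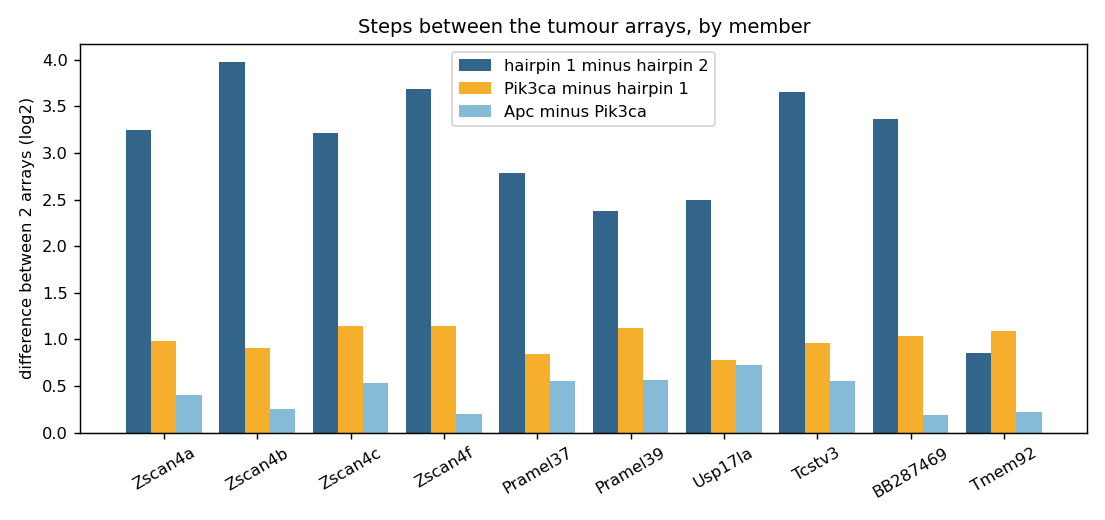
Log2 difference between pairs of tumour-derived arrays (vertical axis) for each of the 10 genes (horizontal axis), with 1 bar per pair: hairpin 1 minus hairpin 2, Pik3ca minus hairpin 1 and Apc minus Pik3ca. The first bar is tallest for every gene except Tmem92, where Pik3ca minus hairpin 1 is taller, and the third lies below 1 throughout.

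These are bulk samples, so more cells with the transcripts and more transcripts per cell cannot be told apart. In embryonic stem cells the program is confined to few cells at a time, as background, and single cells were not measured here.

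Other genes of the two-cell stage were examined from a fixed list. Of 36 listed genes 24 had a named probe and 19 passed the filter of being well above background on at least 1 array. Dux and Zscan4e had no matched probe and were not analysed here. Of the 19, 12 were at least 2-fold higher by the mean of the tumours (9.88% of all genes) and 0 were 2-fold lower, with a median difference of 1.98 beside 0.06 for all genes. A gene silent in the control can pass the filter only through the tumours, and this applied to 10 of the 19, of which 9 were higher. Over all genes, 48.8% of those not well above background in the control were at least 2-fold higher, and 5.27% of those well above it on all 5 arrays. With dim readings raised to the floor the median was 0.87 and 9 were higher. Among the 9 genes well above background on all 5 arrays 3 were higher, with a median of 0.62, and after normexp the median of the list was 0.53. None of the 19 passed limma, and 3 had an unadjusted p under 0.05 (Usp17le, Gm4340 and Gm20767), a mark that 13.3% of all genes met. By array the median difference was 2.19 in hairpin 1, 0.20 in hairpin 2, 3.29 in Apc and 2.51 in Pik3ca. Of the 19, 12 followed the order of the 10 genes above (1.22% of all genes). Among those 12, only Gm4340, Gm20767 and AF067061 were well above background in the control and in hairpin 2. For the rest, the step from the control to hairpin 2 lay between background readings, so the whole order was not measured. Without the Pik3ca library the median of the list was 1.83.
Gm20767, one of the genes measured on both sides, read −5.63 in the control, 0.33 in hairpin 1, −3.18 in hairpin 2, 1.71 in Apc and 1.43 in Pik3ca, a mean of 52.2-fold. AF067061 was 38.9-fold and Gm4340 33.5-fold higher by the mean. Gm8300 was 6.92-fold higher by the mean when the control was set at its floor. It was not well above background in the control or hairpin 2. The mean includes the hairpin 2 reading, so this is not a strict lower bound. Other genes of the two-cell list lay within 2-fold of the control by the mean. Zfp352, a zinc finger gene used as a marker of two-cell-like cells, differed by 0.01. Its probe read 0.64 in the control and 0.36 to 0.88 in the tumours, so it was not dim in the control. Sp110, which read 6.61 in the control, differed by 0.03, Arg2 by 0.24, AF067063 by 0.62 and Usp17ld by 0.84. Trim43c differed by −0.17 and Trim43b by −0.13, and Trim43b was well above background in Apc alone. Usp17ld was past 2-fold in Apc, at 1.47, and in Pik3ca, at 1.29, with −0.18 in hairpin 2. These genes within 2-fold were named after their values were seen.

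The gene families of the 10 were measured more widely. Of 34 other Pramel, Usp17l and Tcstv genes on the array, 21 passed the filter, and 15 of these were at least 2-fold higher (9.88% of all genes) and 0 lower, with a median difference of 2.32, or 2.05 without the Pik3ca library. The filter weighs heavily here, since 15 of the 21 were not well above background in the control and 14 of those made up the higher group together with Pramel20. Genes dim in the control were higher in 48.8% of cases over the whole array. Among the 6 well above background on all 5 arrays the median was −0.05, and over all 34 without the filter it was 0.88. With dim readings at the floor it was 1.20 and 12 genes were 2-fold higher. After normexp it was 0.60. None of the 21 passed limma, and 3 had an unadjusted p under 0.05 (Pramel19, Pramel50 and Usp17le), beside 13.3% of all genes. 6 genes stand in both this list and the one before it. By array the median was 2.19 in hairpin 1, 0.24 in hairpin 2, 3.45 in Apc and 2.95 in Pik3ca.
Within the Pramel family 11 of 16 genes that passed the filter were at least 2-fold higher as measured. Of these 11, 10 were not well above background in the control, so they passed the filter only through the tumours. With the control set at its floor Pramel17, Pramel24, Pramel34, Pramel47 and Pramel48 fell short of 2-fold by the mean, at 0.828 to 1.84. Pramel19 was at least 9.32-fold and Pramel50 at least 8.8-fold higher by the mean. Pramel31 was 11-fold higher against the same floor. Its hairpin 2 reading was not well above background, as in the genes that fell short, so these means are not strict lower bounds. Pramel12, Pramel15, Pramel25 and Pramel26 lay within 2-fold and were well above background on all 5 arrays. Pramel32 also lay within 2-fold, but the probe used for it was well above background on no array, so its value is only background, and 13 more Pramel genes were well above background on no array. Of 4 other Usp17l genes 3 were higher, Usp17lb, Usp17lc and Usp17le, while Usp17ld was not. All 3 were not well above background in the control or in hairpin 2. With the control at its floor Usp17lb was only 1.71-fold higher by the mean. Tcstv1, the relative of Tcstv3, was 5.59-fold higher by the mean with the control at its floor. It read −1.75 in Apc and −2.54 in Pik3ca, and in the control and hairpin 2 it was not well above background, at −8.33 and −7.03. Here too relatives may share signal with the genes of the first group.

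Genes closest to the Zscan4 pattern were found by the root mean square distance of their 4 differences from the Zscan4 mean, which includes the dim control readings of Zscan4a and Zscan4c as measured (5.67 in hairpin 1, 2.14 in hairpin 2, 7.06 in Apc and 6.71 in Pik3ca). Among 17573 genes outside the 10, 12 lay within 1 log2 unit of it. The nearest 5 were AF067061 at 0.19, Gm13043 at 0.279, Gm20767 at 0.312, Pramel50 at 0.343 and Gm4340 at 0.417, with Pearson r of 0.9988, 0.9974, 0.9996, 0.9964 and 0.998 to the Zscan4 mean over 5 arrays. Gm13043 read −4.97 in the control, 0.66 in hairpin 1, −3.39 in hairpin 2, 2.09 in Apc and 1.78 in Pik3ca, a mean of 38.3-fold. Of the 12, 7 stand in the two-cell or family lists, and 5 stand in neither: Gm13043, Gm21319, Gm38423, Spopfm2 and E330014E10Rik. All points share the same 5 arrays.

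Factors known to hold the two-cell program in check or to switch it on were also examined, among them Dppa2, Dppa4, Trim28, Setdb1, the chromatin assembly subunits Chaf1a and Chaf1b, Smchd1 and members of the Polycomb complex that holds Pcgf6. All 36 listed passed the filter, and 0 were 2-fold higher or lower by the mean of the tumours (9.88% higher and 6.98% lower over all genes). The median difference was 0.14, or 0.15 without the Pik3ca library, beside 0.06 for all genes. Single arrays differed more. Tbx3, a T-box transcription factor named after its values were seen, read −5.47 in the control, −0.16 in Apc and −5.69 in Pik3ca, and was not well above background in either hairpin. Its difference of 5.32 in Apc is hidden in a mean of −0.09. None passed limma, and 2 of the 36 had an unadjusted p under 0.05 (Nelfa and Pcgf6), beside 13.3% of all genes. Nelfa, a subunit of the elongation factor NELF, read 0.51 in the control and lay above it by 0.59 to 1.09 in the tumours, with a mean difference of 0.81 ± 0.21 (SD, n = 4). Pcgf6 read 1.25 in the control and −0.12 to 0.60 in the tumours, a difference of −0.94 ± 0.34. Smchd1 differed by 0.54 ± 0.14 and E2f6 by −0.56 ± 0.16. For these 4 genes all tumour readings lay on 1 side of the control. Of the 36, Kdm1a alone followed the order of the 10 genes (1.22% of all genes), with a mean difference of 0.29.

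Pluripotency genes did not share the pattern. Of 17 listed, 14 passed the filter with a median difference of −0.03, or −0.13 without the Pik3ca library. Of the 14, 0 were 2-fold higher (9.88% of all genes) and 1 was 2-fold lower (6.98% of all genes). That gene was Nanog, a core factor of embryonic stem cells, which read −1.41 in the control, −2.91 in hairpin 1, −2.80 in hairpin 2, −3.06 in Apc and −3.34 in Pik3ca, a difference of −1.62 ± 0.23 (SD, n = 4). Nanog had an unadjusted p under 0.05, a mark that 13.3% of all genes met. It did not pass limma after adjustment, nor did any other gene of the list. Esrrb differed by −0.68 ± 0.21, Tfcp2l1 by −0.61 ± 0.42 and Utf1 by 0.86 ± 1.08. Of the 8 embryonic stem cell markers, 6 were well above background on all arrays, with a median level of −0.23 in the control and −0.39 to −0.15 in the tumours. Zfp42 and Fgf4 were well above background on no array.

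Germ cell genes, which are silent in most other tissues, were mostly dim. Of 18 listed, 9 passed the filter, with a median difference of 0.19, or 0.17 without the Pik3ca library. Asz1 was at least 5.59-fold higher (9.88% of all genes were 2-fold higher). Sycp3 differed by −1.27 (6.98% of all genes were 2-fold lower). It was not well above background in hairpin 1, hairpin 2 or Apc, so this value includes background readings. No gene of the list passed limma, and 1 had an unadjusted p under 0.05 (Asz1), beside 13.3% of all genes. Ddx4, a germ cell helicase, differed by 0.44 ± 0.75 (SD, n = 4). The germ cell markers Dazl, Sycp1 and Mael were well above background on no array. Markers of the host's cells were examined as well. Of 7 fibroblast markers Col3a1 and Pdgfrb were well above background on no array, and the median difference of the 5 others was 0.77, with −0.37 in hairpin 1, 1.03 in hairpin 2, 2.44 in Apc and 0.27 in Pik3ca. Pdgfra, Thy1 and Dcn were not well above background in the control. The leukocyte median was 0.35 over 5 markers, with 0.48 in hairpin 1, 0.91 in hairpin 2, 0.09 in Apc and −0.01 in Pik3ca, and Ptprc was not well above background in the control. The endothelial median was 1.00 over 4 markers, with 1.69, 0.05, −0.21 and 1.38 in the same order, and Cdh5, Kdr and Tek were not well above background in the control. The part of such cells in the readings was not tested.

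**Figure D3:**
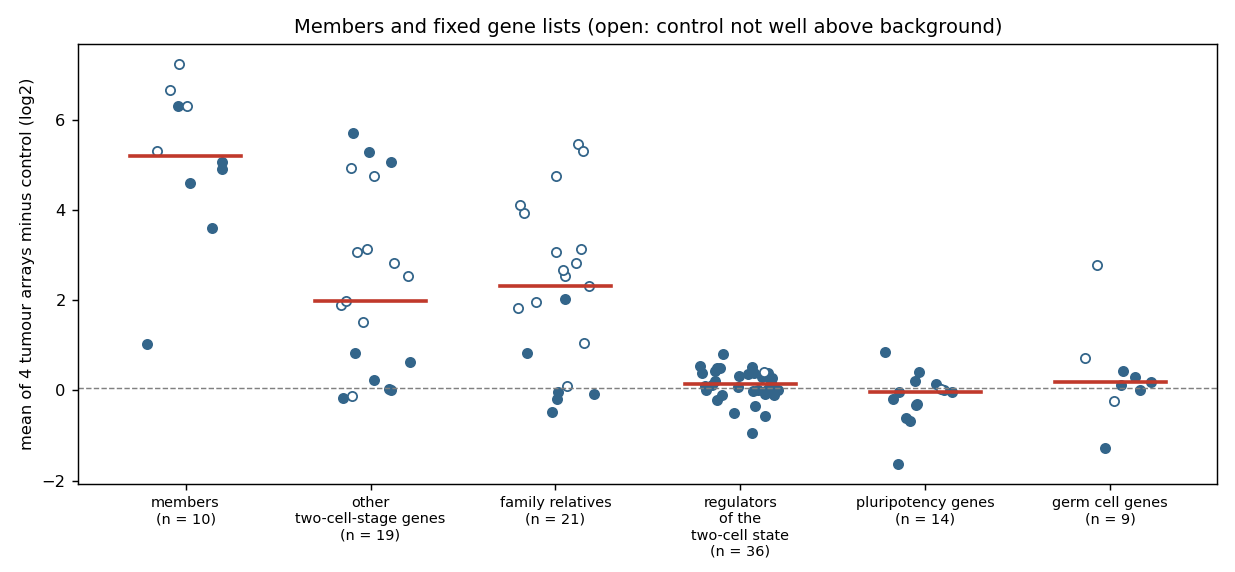
Mean log2 difference of the 4 tumour-derived arrays from the control (vertical axis) for each tested gene of the 10 members and of the 5 fixed lists (horizontal axis), with open points where the control was not well above background, red bars at list medians and a dashed line at the median of all genes. The members lie highest because they were chosen so, the other two-cell-stage genes and family relatives spread from near 0 upward, and the regulators and pluripotency genes gather around the dashed line.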

How the data were processed

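RNA of 5 organoid samples was Cy3-labelled, per the labels' protocols, and quantified with Agilent Feature Extraction 11.0.1.1, per the submitters' processing notes. Per the file headers, the scanner files hold spot intensity, background-subtracted and not normalized between arrays. The authors' deposited value table is log2. Set against the scanner values, its tumour-minus-control differences had slope 1 and r 1, which settles scale and direction. Its baseline per probe stays unknown. Column medians were −0.0572 (control), 0.0733 (hairpin 1), 0.0310 (hairpin 2), −0.0788 (Apc) and 0.0225 (Pik3ca).

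Log2 processed signal was reduced by each array's 75th percentile. Outlier spots (78 to 114 per array) were left out and repeated spots averaged. Probes were named by accession through a RefSeq table (GRCm38.p6, names only), 34549 of 56605 matched 1 gene, and the brightest probe stood for a gene. Of 23779 genes, the 17583 that cleared background anywhere entered limma 3.58.1 (R 4.3.3), a fit tested on simulated data. The fit takes the spread of the control from that of the tumours. Its p-values measure only the spread among the tumour samples, which differ in genotype and slide. That spread may also be technical in part, and the number of arrays limits precision.

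The 10 genes and all lists were chosen with earlier results of these data known. Named were the 10 genes, up to 4 per list with the largest absolute mean difference, the 5 nearest to the Zscan4 profile, and counts of 5 or fewer in full. Alternatives were normexp (median signals, offset 50, where mean signals had been planned), quantile scaling, the deposited table, a floor, other filters, probe means, a slide block, and leaving out each tumour array. The lone control could not be left out.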

Additional observations from a re-analysis of the deposited data

Results flagged for a closer look

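Over the 4 tumour arrays, 31 named genes were examined for 1 reading apart from the rest by Dixon's criterion (the gap to the nearest reading over the whole range), which chance meets in about 1 of 20 groups, and 3 met it. None was among the 10 two-cell-stage genes. E2f6, a repressor of germ line genes, read 1.13 in hairpin 2, with a gap over range of 0.868. Utf1, a pluripotency gene, read −1.03 in Pik3ca, with 0.849. Tdrd1, a germ cell gene, read −4.26 in Apc, with 0.972. Its other tumour readings were not well above background, so this gap is measured against background readings.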

How the results depend on the processing

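The mean difference of each of the 10 genes stayed above 0 under every alternative run, from 0.21 to 1.43 for Tmem92 and from 2.23 upward for the other 9. The limma count over all genes (21) was 48 with normexp, 49 with dim signals at a floor, 7 when every array had to clear background, 0 with slide as a block (1821 genes at an unadjusted p under 0.05), and 0 to 19 when 1 tumour array was left out (0 without hairpin 1, hairpin 2 or Pik3ca, 19 without Apc; 2218, 2032, 1852 and 2341 genes at an unadjusted p under 0.05). No member passed in any of these fits, their lowest adjusted p lying between 0.147 and 0.392. With only genes well above background on all 5 arrays, 6 members remained by construction, and 5, 5, 6 and 6 were 2-fold higher in hairpin 1, hairpin 2, Apc and Pik3ca, and 6 by the mean, a count added after seeing the data. Normexp left 3 in hairpin 2 and gave medians of 2.90 for the members, 0.53 for other two-cell-stage genes and 0.60 for family relatives; the cause was not tested. It also gave 2.51 for Zscan4a, 2.32 for Zscan4c, 3.08 for Pramel37 and 3.66 for Pramel39. Under the filter on all 5 arrays, which removes genes silent in the control, the other two-cell-stage median was 0.62 and that of family relatives reversed to −0.05, against 0.88 with no filter. The pluripotency median was −0.20 after quantile scaling and −0.16 to −0.00 when 1 tumour array was left out, and the germ cell median was 0.61 with the mean of all probes. The cause was not tested. No paired analysis was possible because the groups compared share fewer than 2 replicate numbers. Signal over background limits the 4 members dim in the control to lower bounds.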
